A study of Homo sapiens with 6 samples.

Results

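The MYC and MAX network was followed through 8 genes chosen by symbol: MYC, MAX, MXD1, MXD3, MXD4, MNT, MLX and MGA. All 8 were found among the 62443 genes of the deposited table. No measured value entered the rule, but the members were chosen with earlier results of these data known. All libraries came from HGC-27, an established line of human gastric cancer. RNA-sequencing profiles of 3 control libraries (Con) were compared with those of 3 libraries from cells exposed to GLUP, a cyclic peptide modelled on the part of VGLL4 that binds the transcription factor TEAD4. The labels give Con as having no treatment, whereas the methods of the study name the storage buffer of the peptide, and the labels give neither a dose nor a length of exposure. The study gives different lengths of exposure for this experiment in its results and in its methods, so that the time is uncertain. Both groups are the same unmodified line in the same medium, and the methods speak of biological replicates where the labels name no separate cultures, so that p-values measure only the spread between these libraries, which may be technical. In bulk RNA, fewer cells that express a gene and less of its RNA per cell cannot be told apart.

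MYC is a transcription factor that binds DNA only as a dimer with MAX, mostly at the sequence CACGTG, known as the E-box. There it promotes ribosome production, metabolism and division. The MXD proteins and MNT compete for the same partner and recruit the SIN3 corepressor with its histone deacetylases, and MGA joins MAX to a Polycomb complex, PRC1.6. MLX is a relative of MAX that pairs with the glucose-sensing MondoA and ChREBP as well as with some MXD proteins. MYC is also a known target of TEAD factors, and the study examined its locus as one. That experiment measured chromatin contacts in another human cell line that overexpressed VGLL4, and not MYC RNA under GLUP.

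Values were FPKM, fragment counts scaled by the authors to gene length and to sequencing depth, so that levels can be compared between genes per length. Between 20061 and 21498 genes were above 0 in a library. The number of reads behind each value is unknown, but for a given depth it follows FPKM times length. This product, with the canonical transcript in kilobases, was lowest for MNT (0.238), MXD1 (0.530) and MXD3 (0.782), followed by MGA (3.12) and MXD4 (3.32), so that the first 3 rest on the fewest fragments. Con replicate 2 stood apart, with a mean Pearson correlation of 0.898 with the other libraries, compared with 0.954 to 0.964 for the rest. The deviations of the libraries also followed base composition. Their Spearman correlation with transcript GC content over genes was -0.601 in Con replicate 2, -0.343 for replicate 1 of the same group, and 0.340 to 0.544 in Con replicate 3 and the GLUP libraries. The labelled cell type was checked on marker genes. The gastric markers TFF1, TFF2, GKN1 and PGC were listed at 0 in all 6 libraries, CDH1 reached at most 0.0799 FPKM, EPCAM at most 0.124 FPKM, and KRT18 lay between 0.917 and 2.51 FPKM. VIM, an intermediate filament of mesenchymal cells, lay between 222.2 and 387.2 FPKM, while CDH2 reached at most 0.0508 FPKM. The summed epithelial markers were at 2.97 to 3.70 FPKM in Con and at 5.18 to 6.06 FPKM in GLUP, and the summed mesenchymal markers at 336.8 to 390.5 FPKM in Con and 222.8 to 336.6 FPKM in GLUP. Of the leukocyte markers, CD3E was listed at 0 and PTPRC reached at most 0.0394 FPKM, while the matched endothelial markers reached at most 0.0045 FPKM. The part of these marker differences in the results below was not tested.

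The level of each gene was examined first. MYC was the most abundant member, with a mean of 6.79 FPKM over the 6 libraries, above 91.3% of the 31444 genes detected in any library. MLX followed at 5.56 FPKM and MAX at 3.70 FPKM, and no other member reached a mean of 1 FPKM. The repressor genes were lower throughout. MXD4 had a mean of 0.859 FPKM, MXD3 of 0.733 FPKM, MGA of 0.256 FPKM, MXD1 of 0.0954 FPKM and MNT of 0.0483 FPKM. MNT, a broadly expressed MAX-binding repressor, was the lowest member here and was listed at 0 in 1 library. Neighbours in this order were compared within libraries with a two-sided exact sign-flip test. MLX over MAX, MAX over MXD4, MXD3 over MGA and MGA over MXD1 held in 6 of 6 libraries each. Their exact p was 0.0313, the smallest that 6 libraries allow, and 0.0547 after adjustment over the 7 pairs, so that none passed. MYC exceeded MLX in 5 libraries by a mean of 1.23 ± 2.08 FPKM (SD, n = 6), MXD4 exceeded MXD3 in 3 libraries, and MXD1 exceeded MNT in 5, and these 3 pairs did not differ beyond their spread.

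**Figure D1:**
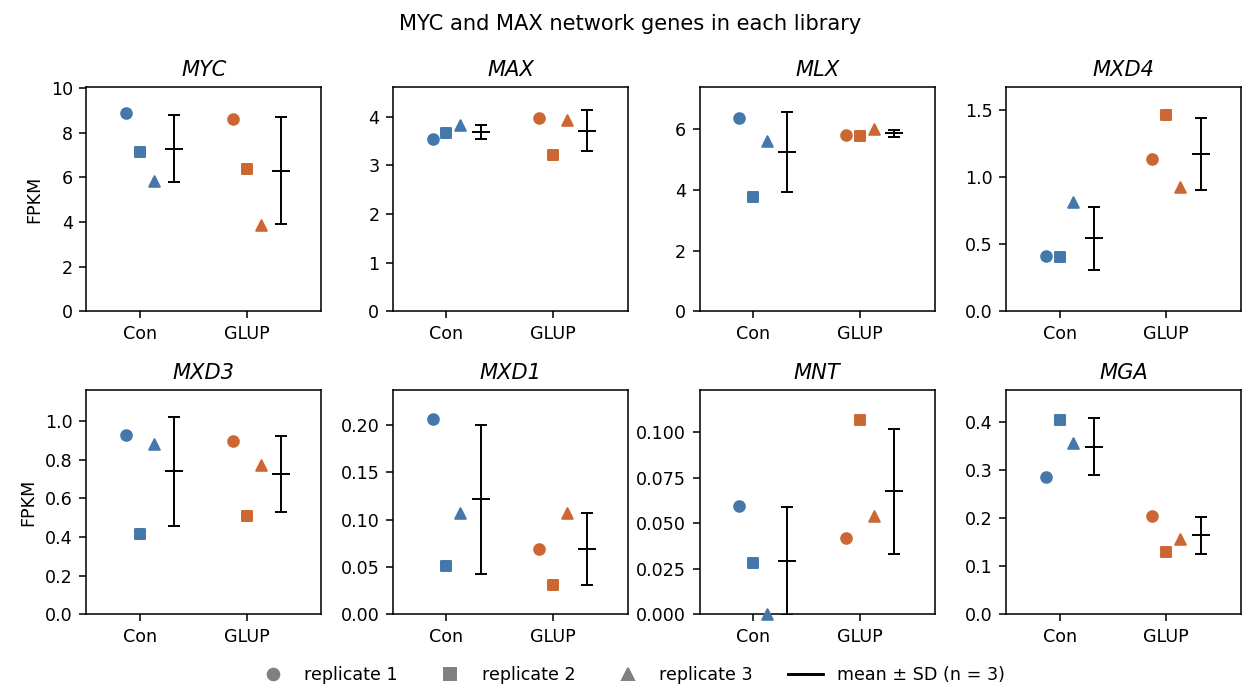
FPKM (vertical axes, linear and starting at 0, with a different scale in each panel) of the 8 network genes in the Con and GLUP libraries; each point is a library, and the bars give the mean ± SD (n = 3). In 6 of the panels the groups overlap, while the 3 GLUP libraries lie above all Con libraries for MXD4 and below them for MGA.

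None of the 8 genes changed past the threshold. The count with an adjusted p under 0.05 was 0 in limma, against 0% of the 7406 tested genes, those averaging at least 1 FPKM, and 0% of the 31444 detected genes. At an unadjusted p under 0.05 it was 1, MXD4, where the background was 8.08% of the detected and 21.7% of the tested genes. The groups did not overlap for 2 of the 8, MXD4 and MGA, compared with 14.1% of the detected genes, 4.39% with GLUP higher and 9.76% with GLUP lower. Of the 8, 5 averaged under 1 FPKM, MXD4 and MGA among them.

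MYC (ENSG00000136997, protein-coding, chromosome 8, plus strand) had FPKM values of 8.88, 7.15 and 5.85 in the Con libraries, in the order of their replicate numbers, and of 8.63, 6.39 and 3.85 in the GLUP libraries. The highest library was a Con library and the lowest a GLUP library, and the others were interleaved. The means were 7.29 ± 1.52 FPKM in Con and 6.29 ± 2.40 FPKM in GLUP (SD, n = 3 each). The difference of log2(FPKM + 1), a scale that shrinks differences between low values, was -0.23 (SE 0.33, 95% interval -0.96 to 0.50, adjusted p 0.668 in limma). The median of all tested genes was also -0.23. Scaling each library by a trimmed mean (of log ratios to a reference) gave 0.043 for MYC, and a loess correction of each library for GC content and transcript length gave -0.0064. Without GLUP replicate 3, the library with the lowest MYC, it was 0.041. MYC fell with the replicate number in both groups. With a block on that number the difference stayed at -0.23 (SE 0.34, adjusted p 0.697 in limma). The interval holds both lower and higher levels in GLUP, so that MYC is not shown to be stable. Exons of MYC overlap those of CASC11, a noncoding gene on the other strand, which had a mean of 0.145 FPKM.

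The genes whose pattern over the 6 libraries was most like that of MYC on the log2(FPKM + 1) scale were FARP2, MT-ND1 and CDCA5, with Pearson correlations of 0.979, 0.973 and 0.964. These are descriptions, since 39 of the 7405 other tested genes had a correlation above 0.9 with only 6 points, all sharing their libraries and scaling.

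MAX (ENSG00000125952, chromosome 14, 65472892 to 65569413 of GRCh37, minus strand), the obligate partner of MYC, was measured at 3.55, 3.67 and 3.83 FPKM in Con and at 3.98, 3.22 and 3.94 FPKM in GLUP. The lowest and the highest library were both GLUP libraries. The difference on the log2(FPKM + 1) scale was 0.0052 (SE 0.25, 95% interval -0.54 to 0.55, adjusted p 0.991 in limma). Trimmed-mean scaling gave 0.24. Exons of MAX overlap those of FNTB, a protein-coding gene on the other strand, which had a mean of 0.813 FPKM.

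MLX (ENSG00000108788, chromosome 17, 40719090 to 40725257, plus strand), the hub of the glucose-responsive branch, was measured at 6.36, 3.78 and 5.61 FPKM in Con and at 5.80, 5.77 and 6.01 FPKM in GLUP. Con replicate 2 was the single low library, and the other 5 were mixed. The log2 difference was 0.16 (SE 0.28, adjusted p 0.725 in limma), and it was -0.023 without Con replicate 2. MLX shares exon sequence with PSMC3IP on the opposite strand, which had a mean of 11.2 FPKM, and strand-specific counting is not stated, so its values are uncertain.

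Among the repressors, the smallest p was that of MXD4 (ENSG00000123933, chromosome 4, 2249159 to 2263836, minus strand), a MAX-binding repressor linked to differentiation and exit from the cell cycle. It was measured at 0.415, 0.403 and 0.811 FPKM in Con and at 1.14, 1.46 and 0.928 FPKM in GLUP. Every GLUP library was above every Con library, with means of 0.543 ± 0.232 FPKM in Con and 1.17 ± 0.268 FPKM in GLUP (SD, n = 3 each). Con replicate 3 was the nearest to GLUP. Among the 8396 genes averaging 0.1 to 1 FPKM, 5.79% had all GLUP libraries higher and 18.4% had groups without overlap. The difference was 0.50 on the log2(FPKM + 1) scale (SE 0.17, 95% interval 0.08 to 0.92), with an unadjusted p of 0.0263 and an adjusted p of 0.589 over the detected genes in limma. The two-sided exact permutation p was 0.1, the smallest that 3 against 3 can give. Because the gene is low, the pseudocount matters: with 0.1 in place of 1 the difference was 1.02 (SE 0.36, adjusted p 0.559 in limma). The transcript has a GC content of 63.5%, on the side of the composition range where the GLUP libraries were higher. After the loess correction, the difference at a pseudocount of 1 was 0.40 (adjusted p 0.242 in limma).

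MGA (ENSG00000174197, chromosome 15, 41913332 to 42065279, plus strand), the scaffold of PRC1.6 and the largest protein of the network, was separated in the other direction. It was measured at 0.285, 0.404 and 0.356 FPKM in Con and at 0.204, 0.130 and 0.157 FPKM in GLUP. Every GLUP library was below every Con library, a pattern found in 12.7% of the genes averaging 0.1 to 1 FPKM. The log2(FPKM + 1) difference was -0.21 (SE 0.10, adjusted p 0.591 in limma) and -0.77 with a pseudocount of 0.1 (SE 0.36, adjusted p 0.566 in limma). The MGA transcript is long, 12193 bases, and has a GC content of 43.2%, where lower values in GLUP were common. After the loess correction, the difference was -0.028 at a pseudocount of 1. At a pseudocount of 0.1, with genes of at least 0.1 FPKM, the corrected difference was -0.31 (adjusted p 0.693 in limma). In that last fit the difference of MXD4 was 0.65 (adjusted p 0.390 in limma). Exons of MGA overlap those of ENSG00000260926, a noncoding gene on the other strand. Its mean of 0.440 FPKM was above the 0.256 FPKM of MGA, so that the values of MGA are uncertain as well.

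The remaining repressors overlapped between the groups. MXD3 (ENSG00000213347, chromosome 5, 176728462 to 176739758, minus strand), the member of its family linked to S phase, was at 0.927, 0.415 and 0.878 FPKM in Con and at 0.896, 0.509 and 0.771 FPKM in GLUP. Both groups held 1 low and 2 higher libraries, and the log2 difference was -0.0051 (SE 0.18), turning to 0.12 under trimmed-mean scaling. It overlaps RAB24 on the same strand (mean 9.53 FPKM) and PRELID1 on the other (mean 17.0 FPKM). MXD1 (ENSG00000059728, chromosome 2, 70124820 to 70170077, plus strand), the founding MXD gene, ranged from 0.0509 to 0.207 FPKM in Con and from 0.0313 to 0.108 FPKM in GLUP. Its exons overlap those of SNRNP27 on the same strand, a gene with a mean of 42.7 FPKM, and how reads in the shared stretch were assigned is not stated. MNT (ENSG00000070444, chromosome 17, 2287367 to 2304398, minus strand) had FPKM values of 0.0593 and 0.0281 in the first pair of Con libraries and was listed at 0 in Con replicate 3, while the GLUP libraries had 0.0417, 0.107 and 0.0542. The log2 differences were -0.067 (SE 0.065) for MXD1 and 0.053 (SE 0.036) for MNT, with adjusted p-values of 0.628 and 0.622 in limma. After the loess correction both turned, to 0.14 and -0.024.

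**Figure D2:**
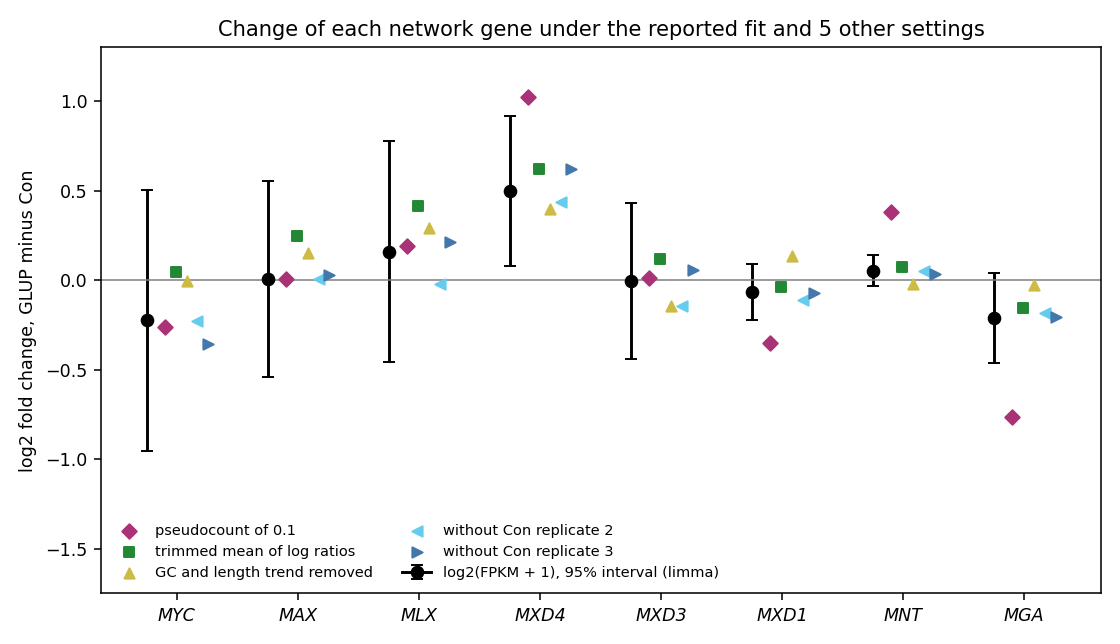
Log2 fold change of each network gene, GLUP minus Con (vertical axis); black points with bars are the reported fit with its 95% interval, and coloured points are 5 other settings. MXD4 stays above 0 and MGA below 0 in all settings drawn, while MYC lies between -0.36 and 0.04.

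The balance between MYC and its competitors was then described per library, with no test, since it combines the same values. The ratio of MYC to MAX FPKM was 2.50, 1.95 and 1.53 in Con and 2.17, 1.98 and 0.977 in GLUP, so that MYC was above MAX in 5 of the 6 libraries. The ratio of MYC to the sum of the 5 repressors (MXD1, MXD3, MXD4, MNT and MGA) was 4.69, 5.49 and 2.72 in Con and 3.68, 2.85 and 1.91 in GLUP, with overlap. Within the 3 MXD genes, MXD4 made up 26.8%, 46.4% and 45.2% of the summed FPKM in Con and 54.1%, 73.0% and 51.4% in GLUP. This share did not overlap, but it reuses the MXD4 values described above. The summed FPKM of the 3 MXD genes was 1.55, 0.869 and 1.80 in Con and 2.10, 2.00 and 1.81 in GLUP, where the groups did not overlap either but their nearest libraries were almost level. Both measures leave out MXI1, a further MXD family gene with a mean of 0.648 FPKM. It was at 0.878, 1.04 and 0.332 FPKM in Con and at 0.350, 0.353 and 0.939 FPKM in GLUP, so that neither separation is shown for the whole family.

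To place the members beside their own binding site, RefSeq promoters (GRCh38.p14, 250 bases before to 50 after a transcription start) were searched for the E-box CACGTG, which reads the same on both strands. The table held 10 promoters for 7 of the 8 genes. It held none for MYC, whose promoter was therefore not searched for either motif. The motif was found in 3 of these 10 promoters, those of MXD4, MNT and MLX, compared with 7.26% of the 35116 promoters of the table. The windows of 30 bases around it are shown because these genes encode factors that bind this element themselves, with the motif in capitals and each read 5′ to 3′ on the strand of its gene. They lie at chr4:2262330-2262359 (minus strand, motif starting 238 bases before the start), chr17:2401236-2401265 (minus strand, 193 bases before) and chr17:42567038-42567067 (plus strand, 50 bases before).
MXD4: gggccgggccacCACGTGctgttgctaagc
MNT: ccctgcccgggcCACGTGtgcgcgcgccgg
MLX: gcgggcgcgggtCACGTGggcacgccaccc
The core of the TEAD site, GGAATG on either strand, was searched in the same promoters, where 14% hold it. It was found in 1 promoter each of MGA and MLX, both times as its reverse complement in capitals here. These windows lie at chr15:41621088-41621117 (plus strand, motif starting 124 bases before the start) and chr17:42566861-42566890 (plus strand, 227 bases before).
MGA: cccaaaccgtctCATTCCaagcccaaggac
MLX: tcatgtcgccgcCATTCCactgcctaaccc
Of the 3 genes with the E-box, MXD4 had groups that did not overlap, and of the 2 with the TEAD core, MGA. Among all detected genes, 14.1% had groups without overlap. MLX, which holds both motifs, and MNT had groups that overlapped, and a link between motif and change was not tested. A match in a window is a description of its letters and shows no binding.

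Relatives outside the 8 genes were lower still or overlapped. MYCN, the neuronal MYC gene, was listed at 0 in all 6 libraries, and MYCL, the third paralog, was listed at 0 in 3 libraries and reached 0.102 FPKM. MXI1, the remaining MXD family gene, was at 0.878, 1.04 and 0.332 FPKM in Con and at 0.350, 0.353 and 0.939 FPKM in GLUP, with overlap. Of the partners of MLX, MLXIP (MondoA) was at 0.252 to 0.494 FPKM in Con and 0.358 to 0.556 FPKM in GLUP, and MLXIPL (ChREBP) reached at most 0.0601 FPKM.

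The partners and targets of the network were read from lists of 104 genes, of which 70 reached a mean of 1 FPKM and were tested. None passed an adjusted p of 0.05 in limma, and at an unadjusted p under 0.05 there were 1 higher and 11 lower, where 4.46% and 17.2% of all tested genes were higher and lower by this measure. The groups did not overlap for 18 of the 70, compared with 30.3% of all tested genes. Con replicate 3 was the Con library closest to GLUP in composition. Without it, 8 of the 70 passed, all lower in GLUP (ARID4A, ARID4B, ING2, E2F6, TFDP2, ODC1, GADD45A and ARRDC3). Of all genes tested in that setting, 16.2% were called lower and 18.3% were called in either direction. The Con libraries left there are those whose correlation with GC content was negative (-0.343 and -0.601), so that group and composition cannot be told apart in it.

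The SIN3-HDAC corepressor, which the MXD proteins and MNT recruit, had 10 tested genes of 15, with 8 lower and 2 higher in mean. The median log2 difference was -0.54, compared with -0.23 for all tested genes. The groups did not overlap for 3 genes in the lower direction, where 22.7% of all tested genes did so, and for 1 in the higher, where 7.55% did. ARID4B, a chromatin reader of the complex, was at 8.80, 6.91 and 6.16 FPKM in Con and 2.36, 1.76 and 3.39 FPKM in GLUP. Its log2 difference was -1.26 (SE 0.29, adjusted p 0.194 in limma) and -1.36 without Con replicate 3, where the adjusted p was 0.0306 in limma. ING2, a reader of methylated histone H3, was at 1.89 ± 0.702 FPKM in Con and 0.571 ± 0.103 FPKM in GLUP (SD, n = 3 each), and it too passed without Con replicate 3 (-1.06, adjusted p 0.0289 in limma). The third gene, SIN3A, the scaffold that the MXD proteins contact, had a difference of -0.46 and is named after its value was seen. BRMS1, a metastasis suppressor of the complex, was higher, at 18.3 ± 13.2 FPKM in Con and 31.5 ± 3.16 FPKM in GLUP, with 3.11 FPKM in Con replicate 2 alone and at least 24.7 FPKM elsewhere. HDAC1, a catalytic subunit, was at 5.89 ± 3.46 FPKM in Con and 8.59 ± 0.997 FPKM in GLUP, with overlap. After the loess correction, the median of the list was -0.12. ARID4B was then at -0.74, ING2 at -0.32, BRMS1 at 0.84 and HDAC1 at 0.77.

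PRC1.6, the complex that MGA anchors, had 10 tested genes of 13, of which HDAC1, HDAC2 and WDR5 also stand in other lists. The median was -0.43, with 8 genes lower in mean and 2 higher. E2F6, its DNA-binding repressor, was at 2.05, 2.28 and 0.889 FPKM in Con and at 0.565, 0.543 and 0.509 FPKM in GLUP, a log2 difference of -0.79 (SE 0.25, adjusted p 0.194 in limma). TFDP2, a dimer partner of E2F proteins, was at 6.75 ± 1.90 FPKM in Con and 3.59 ± 0.568 FPKM in GLUP (SD, n = 3 each). Neither passed in the reported fit, and both did without Con replicate 3 (adjusted p 0.0289 for E2F6 and 0.0450 for TFDP2 in limma). L3MBTL2, a histone reader specific to this complex, was at 0.890 ± 0.472 FPKM in Con and 1.35 ± 0.576 FPKM in GLUP, with overlap. After the loess correction, the median of the list was 0.012. E2F6 was then at -0.40, TFDP2 at -0.43 and L3MBTL2 at 0.23.

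**Figure D3:**
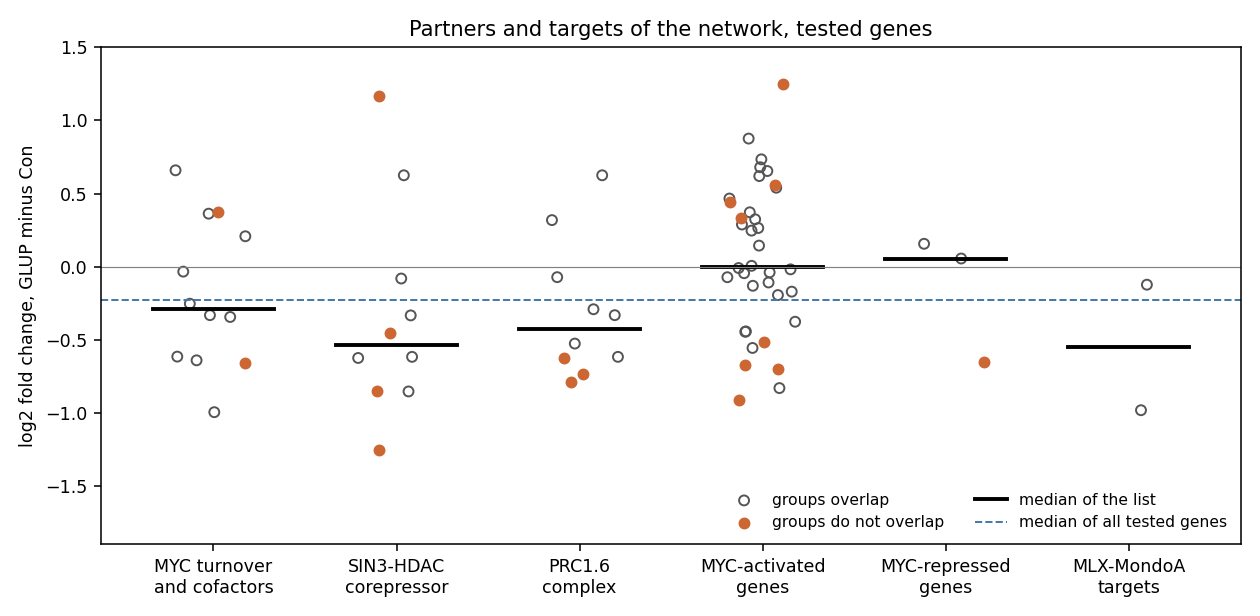
Log2 fold change, GLUP minus Con (vertical axis), of the tested genes in 6 lists of partners and targets; each point is a gene, filled where the groups do not overlap, black bars are list medians, and the dashed line is the median of all tested genes, -0.23. The SIN3-HDAC and PRC1.6 medians lie below the dashed line at -0.54 and -0.43, and that of the MYC-activated genes above it at -0.0023.

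Of 38 genes that MYC is known to activate, 36 were tested, with 18 higher and 18 lower in mean, where 2556 of all tested genes were higher and 4850 lower. The median was -0.0023 as deposited, 0.29 under trimmed-mean scaling and 0.27 after the loess correction. The groups did not overlap for 4 of the 36 in each direction, where 7.55% of all tested genes were higher and 22.7% lower in this way. These genes are named in part after their values were seen. Higher in GLUP were EIF4A1, a translation helicase, PES1 and NOP56, which act in ribosome assembly, and CAD, which starts pyrimidine synthesis. Lower were CCND2, a cyclin of the G1 phase, ODC1, the first enzyme of polyamine synthesis, and WDR43 and DKC1, which act in the nucleolus. CCND2 was at 30.2, 16.5 and 24.8 FPKM in Con and at 11.1, 11.8 and 12.6 FPKM in GLUP, a log2 difference of -0.91 (SE 0.31, adjusted p 0.198 in limma). WDR43 was at 12.7 ± 2.11 FPKM in Con and 7.40 ± 1.31 FPKM in GLUP. PES1 was at 0.821, 0.890 and 1.51 FPKM in Con and at 2.04, 2.55 and 1.56 FPKM in GLUP, a difference of 0.56 (SE 0.24, adjusted p 0.220 in limma). SLC7A5, an amino acid transporter, was at 2.80 ± 1.24 FPKM in Con and 4.95 ± 1.21 FPKM in GLUP, with overlap. The loess correction gave -0.57 for CCND2, -0.18 for WDR43, 0.33 for PES1 and 0.49 for SLC7A5.

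Of 10 genes that MYC is known to repress, only 3 were tested. GADD45A, a growth arrest gene, was at 7.28 ± 2.48 FPKM in Con and 4.10 ± 0.290 FPKM in GLUP (SD, n = 3 each) without overlap, a log2 difference of -0.66 (adjusted p 0.236 in limma). Without Con replicate 3 it was -0.89 (adjusted p 0.0465 in limma), and with all libraries after the loess correction -0.60. CLU and CDKN1A, a chaperone and a cell cycle inhibitor, had differences of 0.16 and 0.06. Of the 6 targets of MLX with MondoA, 2 were tested. ARRDC3, an arrestin, was at 2.06, 4.07 and 0.840 FPKM in Con and at 0.883, 0.449 and 0.354 FPKM in GLUP, a difference of -0.98 (SE 0.35, adjusted p 0.198 in limma) with the highest values in Con replicates 1 and 2. Without Con replicate 3 it was -1.35 (adjusted p 0.0315 in limma), and with all libraries after the loess correction -0.40. TXNIP, the glucose-induced inhibitor of thioredoxin, was at 3.45 ± 0.630 FPKM in Con and 3.09 ± 0.601 FPKM in GLUP.

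Among 20 genes that act on the MYC protein or with it, 12 were tested, with a median of -0.29. HUWE1, a ubiquitin ligase for MYC, was at 1.66 ± 0.406 FPKM in Con and 2.42 ± 0.183 FPKM in GLUP without overlap, a difference of 0.37 (SE 0.24). ACTL6A, an actin-like subunit of the complexes that acetylate and remodel chromatin at MYC sites, was at 16.6 ± 4.90 FPKM in Con and 9.90 ± 0.639 FPKM in GLUP, also without overlap. RUVBL2, an ATPase of the same complexes as ACTL6A, was at 32.5 FPKM in Con replicate 2 and between 151.8 and 196.2 FPKM in the other libraries. The loess correction gave log2 differences of 0.55 for HUWE1, -0.18 for ACTL6A and 0.32 for RUVBL2.

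**Figure D4:**
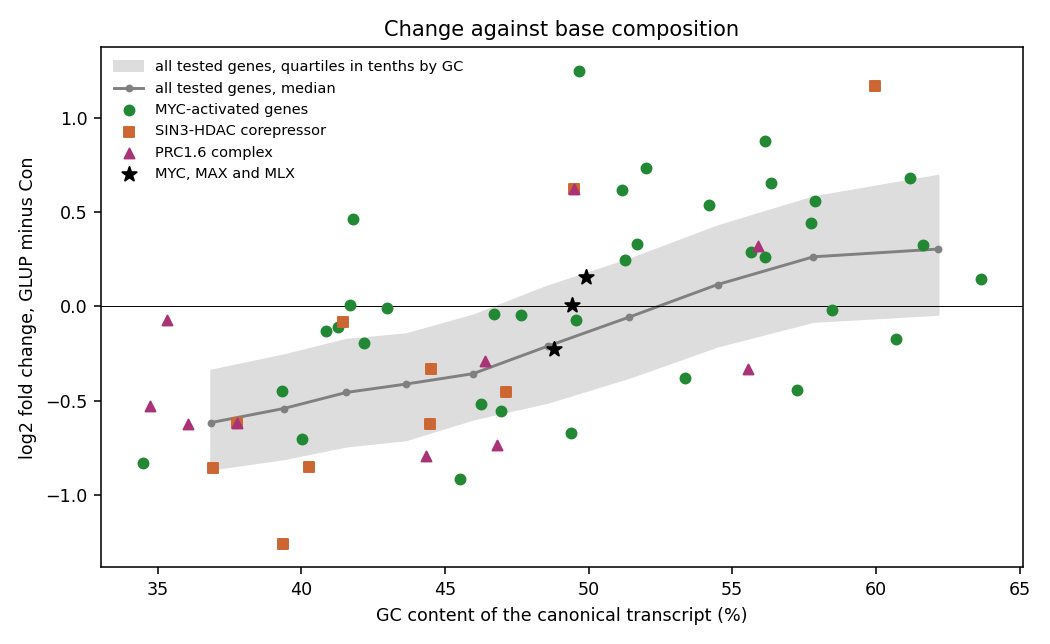
Log2 fold change, GLUP minus Con (vertical axis), against the GC content of the canonical transcript in percent (horizontal axis); grey shows the median and quartiles of all tested genes in 10 bins by GC, and the symbols are MYC, MAX and MLX and 3 of the lists. The grey median goes from -0.62 in the bin with the lowest GC to 0.30 in the bin with the highest, with MYC close to it and MAX and MLX above it.

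The medians of the lists rose with GC content, except from the MYC-repressed to the MYC-activated genes. Those of the MLX and MondoA targets and the MYC-repressed genes rest on 2 and 3 tested genes. The median GC content was 40.5% for the MLX and MondoA targets, 42.9% for the SIN3-HDAC genes, 45.4% for PRC1.6, 47.9% for the genes acting on or with MYC, 50.7% for the MYC-repressed and 51.2% for the MYC-activated genes, compared with 47.2% for all tested genes. In the same order the median log2 differences were -0.55, -0.54, -0.43, -0.29, 0.055 and -0.0023, and after the loess correction they were -0.053, -0.12, 0.012, 0.098, -0.16 and 0.27. For all tested genes the median was -0.23 before and 0.0075 after this correction. The GC correlations were negative in Con replicates 1 and 2 and positive in every GLUP library. The correction can therefore also remove group differences that follow GC content. The part of base composition in the list medians was not tested. MYC, MAX and MLX had GC contents of 48.8%, 49.4% and 49.9%, in a bin of genes whose median difference was -0.21.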

How the data were processed

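RNA of 3 Con and 3 GLUP samples was sequenced, grouped by title. The authors deposited FPKM per gene, with no counts. HISAT2, Cufflinks and RSEM appear in the submitters' processing notes without roles or versions, with build GRCh38.p10, whereas the gene identifiers are those of an annotation lifted to GRCh37. Coordinates, GC content and length (canonical transcript) came from GENCODE release 44 on GRCh37. Of 62492 rows, 49 pseudoautosomal copies, all at 0, were summed with their counterparts. Symbols named 62162 genes.

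Genes averaging at least 1 FPKM were fitted on log2(FPKM + 1) with limma 3.58.1 (trend, two-sided, Benjamini-Hochberg) in R 4.3.3, and members below this took their values from the fit of all 31444 detected genes. Intervals are 95% intervals of that fit. An adjusted p under 0.05 was the threshold. The fit was tested on simulated data with noise independent between genes and libraries. These data lack the shared deviations by base composition of the real libraries. Members and lists were chosen with earlier results of these data known. Named genes were all members, the 2 genes per direction with the smallest p in each list, and the 3 genes most correlated with MYC. Alternatives were a pseudocount of 0.1, no filter, a minimum of 5 FPKM, scaling by the trimmed mean of log ratios (30% by ratio, 5% by level) or the median, a loess correction of each library for GC content and length (span 0.5, for 98.3% of tested genes), no trend in eBayes, a block on the replicate number, and every fit without 1 library. Added after seeing the data was a minimum of 0.1 FPKM with a pseudocount of 0.1, with and without the loess correction. Among genes averaging at least 1 FPKM, no value above 0 was identical between libraries. Of the 20 cell type markers, PECAM1 matched no gene by symbol. The values of 1 named gene and of 1 marker, with the sum that rests on it, are not reported here.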

Additional observations from a re-analysis of the deposited data

How the results depend on the processing

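No member passed under any of the settings run. All genes called numbered 0 as reported, 1 with a minimum of 5 FPKM, 1 without trend in eBayes, 2 after the loess correction for GC content and length, and 2 when this correction was joined to a minimum and pseudocount of 0.1. Without single libraries the number ran from 0 to 1372, and for list genes from 0 to 8, both highest without Con replicate 3, while without Con replicate 2 it was 3 for all genes. The sign of small differences turned. MYC was 0.043 under trimmed-mean scaling and 0.063 centred on the median. MXD3 was 0.010 with a pseudocount of 0.1 (with either minimum), 0.12 under trimmed-mean scaling and 0.13 centred on the median. After the loess correction MXD1 was 0.14 and MNT -0.024. Both rescalings take out the shift of the median of all tested genes, -0.23. Without single libraries MYC ran from -0.45 to 0.041, MAX from -0.037 to 0.083, MXD3 from -0.15 to 0.088 and MLX from -0.023 to 0.29. MXD4 (0.41 to 0.62) and MGA (-0.25 to -0.18) kept their sign. The cause of the turns in sign was not tested. MAX and the members below it had no value at a minimum of 5 FPKM, nor MXD1 and MNT at 0.1 FPKM.

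Same-numbered libraries deviated from their group means with correlations of 0.13, -0.010 and -0.17, so that no pairing by replicate number was apparent over the tested genes. Differently numbered libraries were not compared, so that pairing is not excluded. With the replicate block 1 gene was called, no member. Depth is unknown, which limits MNT, MXD1 and MXD3 most.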
